A study of Mus musculus with 9 samples.

Results

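The guanylate-binding protein genes described here are Gbp2, Gbp3, Gbp4, Gbp5, Gbp6, Gbp7, Gbp8, Gbp9, Gbp10 and Gbp11, taken by gene symbol. They are 10 of the 37022 genes with a deposited transcript row found in GENCODE M21 (mouse build GRCm38). RNA made by mouse CD8+ T cells during 30 minutes with 0.2 mM 5-ethynyl uridine, a nucleoside that carries a chemical handle for capture, was pulled down and sequenced. The 9 libraries form 3 groups of 3: Acute (acute stimulation), Chronic (chronic stimulation) and ChronicMEKi (chronic stimulation with inhibition of MEK, the kinase that activates ERK). The design asks which changes in new transcription accompany T cell exhaustion, the loss of function under lasting stimulation. The labels give the same cell type for every library and do not give strain, age, number of animals, the manner or length of stimulation, or the inhibitor. Nothing in them says that libraries came from separate animals or cultures, so p-values measure only the spread between these libraries, which may be technical.

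Guanylate-binding proteins are large GTPases of the dynamin-like class. Their genes are among the most inducible targets of interferon, above all of interferon gamma, whose receptor acts through JAK kinases and raises the transcription factor IRF1. The proteins gather on vacuoles and on microbes inside the cell, help to break them open and promote inflammasome activation, and T cells express them too. Captured nascent RNA follows transcription in progress, introns included, rather than the amount of mature message.

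All members lie in 2 clusters. On chromosome 3, the plus-strand genes Gbp5 (142496900 to 142522344, ENSMUST00000090127.6), Gbp7 (142530342 to 142550149, ENSMUST00000045097.10), Gbp3 (142560145 to 142573209, ENSMUST00000029935.13) and Gbp2 (142620602 to 142638008, ENSMUST00000165774.7) fall within 141.1 kb. On chromosome 5, the minus-strand genes Gbp8 (105014153 to 105139540, ENSMUST00000031235.12), Gbp9 (105079298 to 105139539, ENSMUST00000100961.4), Gbp4 (105115767 to 105139586, ENSMUST00000100962.7), Gbp10 (105215699 to 105239533, ENSMUST00000065588.6), Gbp6 (105270702 to 105293684, ENSMUST00000200045.4) and Gbp11 (105323042 to 105346472, ENSMUST00000100960.10) fall within 332.3 kb. Given are the ends and identifier of the transcript row used for each gene, the one whose gene-body signal was highest on average, and each row covers exons, introns and UTRs. Of the 10, Gbp11 is annotated as a polymorphic pseudogene and the others as protein-coding.

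**Figure D1:**
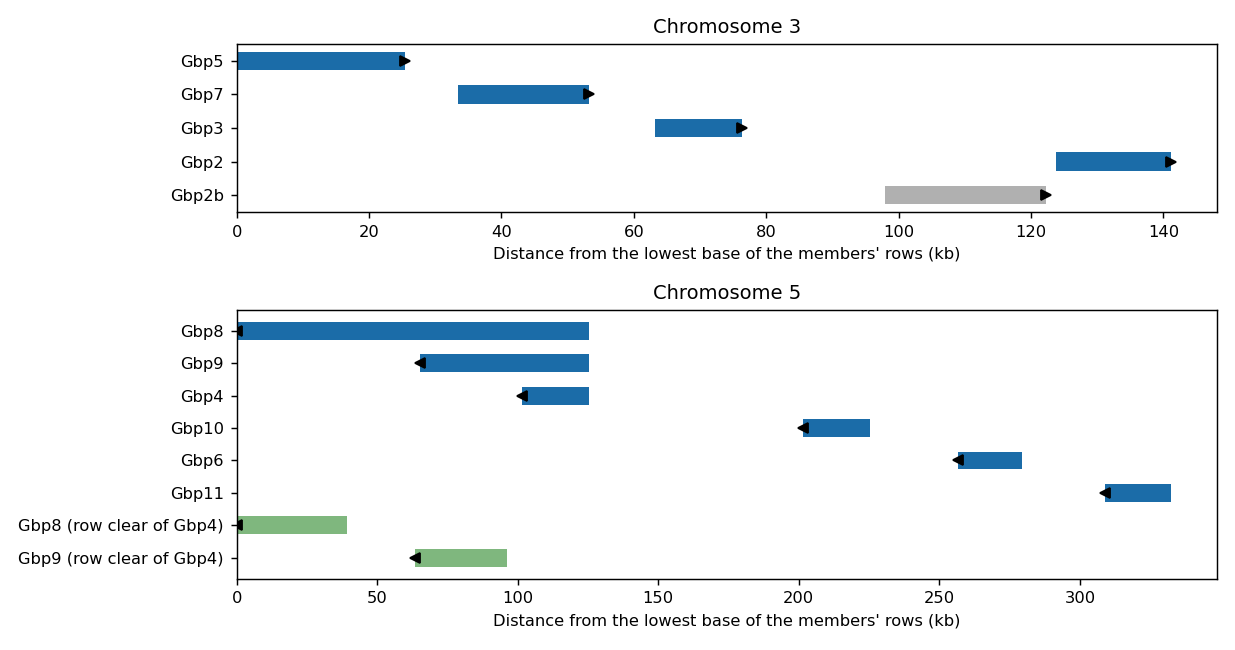
Transcript rows of the Gbp genes on chromosomes 3 and 5, with distance in kb from the lowest base of the members' rows on the horizontal axis. Blue bars are the rows used, green bars are rows of Gbp8 and Gbp9 that do not reach Gbp4, the grey bar is the relative Gbp2b, and arrowheads mark the direction of transcription; the rows of Gbp8 and Gbp9 are seen to run through Gbp4.

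Because interferon acts on these genes through short promoter elements, promoter sequence is shown first. RefSeq promoters (GRCm38.p6, from 250 bases before to 50 bases after the start site) were matched for 4 of the 10 members, Gbp2, Gbp3, Gbp5 and Gbp7, and for the relative Gbp2b. The core of the interferon-stimulated response element, read as GAAANNGAA on either strand, stood upstream of the start in all 5 genes, against 8.56% of 32851 RefSeq promoters. In each of the 5 genes the core lay on the reverse strand, so the runs below show it as its reverse complement. Each is 30 bases, 5′ to 3′ on the plus strand, with the letters that match the core in capitals.

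Gbp5, chr3:142496760-142496789: cttgtgtagtTTCAATTTCagtttagagaa

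Gbp7, chr3:142530274-142530303: tgtgtgcagtTTCAGTTTCagttctccatc

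Gbp3, chr3:142559990-142560019: aggacacagtTTCAGTTTCTATTTCccaga

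Gbp2b, chr3:142594701-142594730: tacttctaatTTCACTTTCttctttatcac

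Gbp2, chr3:142620595-142620624: ctcttttagtTTCACTTTCactgtcttaag

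Counted from the RefSeq start, the match covered positions -52 to -44 in Gbp7, -58 to -50 in Gbp2 and -164 to -156 in Gbp5. In Gbp3 overlapping matches covered -44 to -36 and -38 to -30 of 1 of its 2 RefSeq entries, and the other entry held none. The gamma-activated site, a second interferon-responsive element, read as TTCNNNGAA, occurred in 8.30% of all promoters and was found at 2 places each in Gbp5 and Gbp7. The AP-1 element, read as TGANTCA and bound by the FOS and JUN factors that MAP kinase signalling raises, occurred in 7.81% of all promoters and was found in Gbp2 at positions -102 to -96 and in Gbp2b at positions 9 to 15, after its start. These matches describe letters and not binding, and a motif not listed for a gene means only that its letters are not in this window. The GENCODE row of Gbp2 starts at 142620602, before the RefSeq start at 142620663, so the Gbp2 run overlaps the 5′ end of that row.

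Transcription over the Gbp genes was lower under chronic than under acute stimulation, and inhibiting MEK raised it again for some members and not detectably for others. With rows that overlap counted once, the scaled gene-body signal of the 10 genes summed to 26200 ± 1438 in the Acute group (mean ± SD, n = 3), 9575 ± 259 under chronic stimulation and 14582 ± 322 with the inhibitor. The Chronic libraries, from 9411 to 9875, all lay under the ChronicMEKi libraries, from 14218 to 14827, and these under the Acute libraries, from 24687 to 27550. Signal here is the deposited value divided by a factor per library that centres the bulk of genes. In bulk samples, fewer cells of a type and less RNA per cell cannot be told apart.

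All 10 members passed the filter on low values (3 or more libraries with a deposited signal of 50 or higher). Between Chronic and Acute, 9 of the 10 were called lower by limma (adjusted p under 0.05 over 15942 genes) and 0 higher, against 15.9% of all genes called lower and 18.0% called higher. Between ChronicMEKi and Chronic, 4 of 10 were called higher (Gbp2, Gbp5, Gbp6 and Gbp10) and 0 lower, against 9.93% of all genes called higher and 7.65% lower. Between ChronicMEKi and Acute, 9 of 10 were called lower and 0 higher, against 11.5% of all genes called lower and 14.4% higher. The median log2 fold change of the members was -1.51, 0.45 and -0.85 in these comparisons, beside -0.02, 0.04 and 0.00 over all genes tested. With libraries scaled to their totals, the number of genes called lower and higher became 6846 and 1096 (in place of 2529 and 2875) between Chronic and Acute, 741 and 1769 (in place of 1219 and 1583) between ChronicMEKi and Chronic, and 4965 and 955 (in place of 1827 and 2290) between ChronicMEKi and Acute, while the members called were 10, 4 and 9 with the same directions. The 3 comparisons share libraries in pairs, and overlapping rows make some members repeat each other, as described below.

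**Figure D2:**
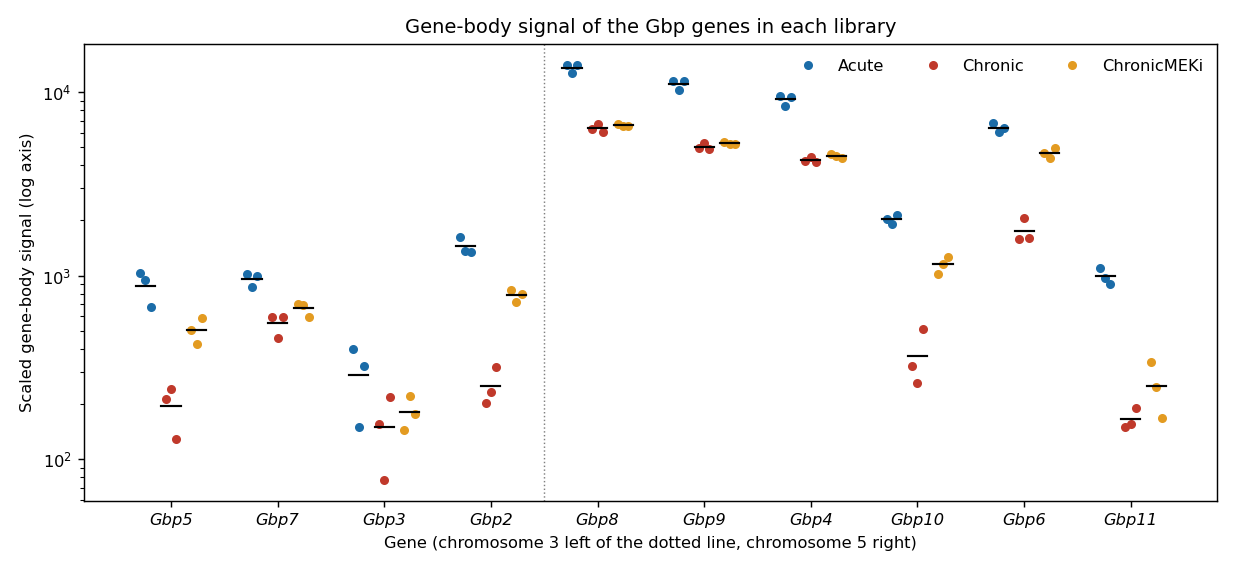
Scaled gene-body signal of each Gbp gene on a log axis, 1 point per library and a black bar at the mean of the 3 libraries of a group. The Chronic libraries lie under all Acute libraries for every gene but Gbp3, and the ChronicMEKi libraries lie above all Chronic libraries for Gbp2, Gbp5, Gbp6 and Gbp10. The share of all genes with libraries separated in this way is not given, so the separations describe these genes only.

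Gbp2 encodes a protein anchored to membranes by a lipid (prenyl) group. Its signal was 1629, 1359 and 1352 in the Acute libraries, 203, 234 and 317 in Chronic and 834, 723 and 796 in ChronicMEKi. The 3 groups did not overlap, with Chronic lowest and ChronicMEKi in between. Gbp2 fell by 2.52 on the log2 scale between Acute and Chronic (SE 0.18, limma adjusted p = 3.88e-09) and rose by 1.65 with MEK inhibition (SE 0.18, adjusted p = 2.48e-06). It stayed 0.88 below Acute (log2 fold change -0.88, SE 0.18, adjusted p = 0.00131), at 54.2% of the Acute mean.

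Gbp5, also prenylated and known for promoting inflammasome assembly, gave 1029, 945 and 676 in Acute, 212, 241 and 130 in Chronic and 506, 427 and 590 in ChronicMEKi libraries. As for Gbp2, the groups were separate and ChronicMEKi lay between the others. The log2 fold change was -2.18 between Chronic and Acute (SE 0.24, adjusted p = 1.29e-06) and 1.40 between ChronicMEKi and Chronic (SE 0.24, adjusted p = 0.000394). The remaining gap to Acute was -0.78 (SE 0.24, limma adjusted p = 0.0233). That last call was lost without Acute replicate 1 (adjusted p = 0.0790), without ChronicMEKi replicate 2 (0.0824), with no filter on low values (0.0577) and in limma without trend and robust moderation (0.0714).

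Gbp6 and Gbp10, near-identical neighbours on chromosome 5, followed the same order of groups. Gbp6 gave 6768, 6037 and 6377 in Acute, 1591, 2060 and 1608 in Chronic and 4684, 4365 and 4974 in ChronicMEKi libraries. Gbp10 gave 2029, 1911 and 2144, then 320, 261 and 514, and then 1025, 1160 and 1269. Neither gene had overlapping groups, and both were lowest in Chronic. Gbp6 fell by 1.87 (SE 0.11, adjusted p = 2.21e-10) and rose by 1.42 with the inhibitor (SE 0.11, adjusted p = 2.53e-08). Gbp10 fell by 2.52 (SE 0.19, adjusted p = 1.24e-08) and rose by 1.70 (SE 0.19, adjusted p = 4.43e-06). Against Acute, ChronicMEKi remained lower by a log2 fold change of -0.45 for Gbp6 (adjusted p = 0.00425) and -0.82 for Gbp10 (adjusted p = 0.00414).

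Reads from these genes can be hard to place. The coding sequences of Gbp6 and Gbp10 were 98.37% identical over 1836 aligned bases, and 76.2% of the 50-base stretches of the spliced Gbp10 exons also occur in another gene (84.1% when the locus Gm43302 is counted), as do 49.9% of those of Gbp6 (70.7% with Gm43302). Gm43302 is annotated on the same strand and overlaps both genes, and its row gave 8917 ± 473, 2245 ± 185 and 6191 ± 411 in the 3 groups. The following 90 coding bases, numbers 43 to 132 from the start codon, show how close the copies are, with the base at the single mismatch in capitals and the coding strand (minus) read 5′ to 3′.

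Gbp10, chr5:105236003-105236092: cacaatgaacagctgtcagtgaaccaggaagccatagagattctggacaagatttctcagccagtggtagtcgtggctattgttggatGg

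Gbp6, chr5:105290889-105290978: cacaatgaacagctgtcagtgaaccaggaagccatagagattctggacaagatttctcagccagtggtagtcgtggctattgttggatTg

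How the authors placed reads that fit both copies is not given in the sources used here, so the split between Gbp6 and Gbp10 is uncertain. Among the remaining members the share of such 50-base stretches was 19.2% for Gbp11, 18.1% for Gbp8, 12.7% for Gbp7 (mostly with the overlapping Gm43802), 8.05% for Gbp9, 7.78% for Gbp4, 3.75% for Gbp3, 2.03% for Gbp2 and 1.44% for Gbp5. Every pair of the 6 chromosome 5 genes was at least 90.02% identical in coding sequence, while Gbp3 and Gbp7 on chromosome 3 were 78.52% identical and Gbp2 and Gbp5 72.11%. The rows also cover introns, whose identity was not assessed.

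Gbp4 held the most signal per kb of any member in Acute and Chronic libraries. It gave 9500, 8424 and 9465 in Acute, 4211, 4416 and 4163 in Chronic and 4618, 4475 and 4395 in ChronicMEKi libraries. Acute stood apart from both chronic groups, and these overlapped each other. Gbp4 fell by 1.10 (SE 0.09, limma adjusted p = 1.26e-08), and the inhibitor moved it by 0.08, with a 95% interval from -0.10 to 0.26 (adjusted p = 0.629). Relative to Acute its log2 fold change in ChronicMEKi was -1.02 (SE 0.09, adjusted p = 6.46e-08).

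The rows used for Gbp8 and Gbp9 start with Gbp4 and run through it, so the 3 genes are not separate measurements. The Gbp4 row held 65.9% to 69.0% of the Gbp8 signal and 81.8% to 86.2% of the Gbp9 signal across the 9 libraries. The log2 fold changes of these long rows were accordingly close to that of Gbp4, at -1.10 for Gbp8 and -1.14 for Gbp9 between Chronic and Acute and at 0.06 for both with the inhibitor. Each gene also has a row that does not reach Gbp4, chosen after the values were seen. The row of Gbp8 from 105014150 to 105053556 gave 2164, 2245 and 2220 in Acute, 1304, 1331 and 973 in Chronic and 1226, 1251 and 1179 in ChronicMEKi libraries. The row of Gbp9 from 105077630 to 105110276 gave 1915, 1767 and 1909, then 698, 646 and 700, and then 620, 657 and 685. For both rows the Acute libraries lay above all others, while Chronic and ChronicMEKi overlapped. In the fit with these rows Gbp8 fell by 0.89 and Gbp9 fell by 1.45 between Acute and Chronic (limma adjusted p = 2.80e-05 and 9.62e-08), and the change with the inhibitor was 0.03 and -0.06 and was not called.

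Gbp7, known for its part in bringing oxidase and autophagy proteins to vacuoles, gave 1022, 871 and 1000 in Acute, 596, 455 and 597 in Chronic and 706, 692 and 595 in ChronicMEKi libraries. Acute was above the other groups, and the lowest ChronicMEKi library fell among the Chronic ones. Gbp7 fell by 0.81 (SE 0.16, limma adjusted p = 0.000786). With the inhibitor the log2 fold change was 0.28, with a 95% interval from -0.07 to 0.62 (adjusted p = 0.290), and against Acute it was -0.54 (SE 0.16, adjusted p = 0.0221). This last call was lost without Acute replicate 1 (0.0535), without ChronicMEKi replicate 3 (0.0960) and with no filter on low values (0.0570).

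Gbp11 gave 1098, 978 and 901 in Acute, 150, 155 and 190 in Chronic and 339, 247 and 169 in ChronicMEKi libraries. The Acute libraries stood far above the rest, and the third ChronicMEKi library was inside the Chronic range. It fell by 2.55 between Acute and Chronic (SE 0.25, adjusted p = 2.13e-07), and its log2 fold change between ChronicMEKi and Acute was -2.01 (SE 0.25, adjusted p = 6.87e-06). The inhibitor moved it by 0.54, with a 95% interval from 0.02 to 1.07, which was not called (adjusted p = 0.153). Without ChronicMEKi replicate 3 the change was 0.80 and called (adjusted p = 0.0373), and without ChronicMEKi replicate 1 it was 0.25 (adjusted p = 0.604).

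Gbp3 had the lowest signal of the members, with 398, 150 and 320 in Acute, 155, 77.05 and 219 in Chronic and 145, 222 and 176 in ChronicMEKi libraries. All 3 groups overlapped. The log2 fold changes were -0.93 (SE 0.39, limma adjusted p = 0.0779) between Chronic and Acute, 0.36 (adjusted p = 0.626) with the inhibitor and -0.57 (adjusted p = 0.321) between ChronicMEKi and Acute. The first was called without Acute replicate 2 (-1.33, adjusted p = 0.0116), without Chronic replicate 3 (-1.25, 0.0287) and when libraries were scaled to their totals (-1.41, 0.00498). With library totals the median of all genes was -0.50, beside -0.02 with the scaling used here. Leaving out other libraries took the value the other way, to -0.52 without Chronic replicate 2 (limma adjusted p = 0.341) and -0.65 without Acute replicate 1 (0.299).

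**Figure D3:**
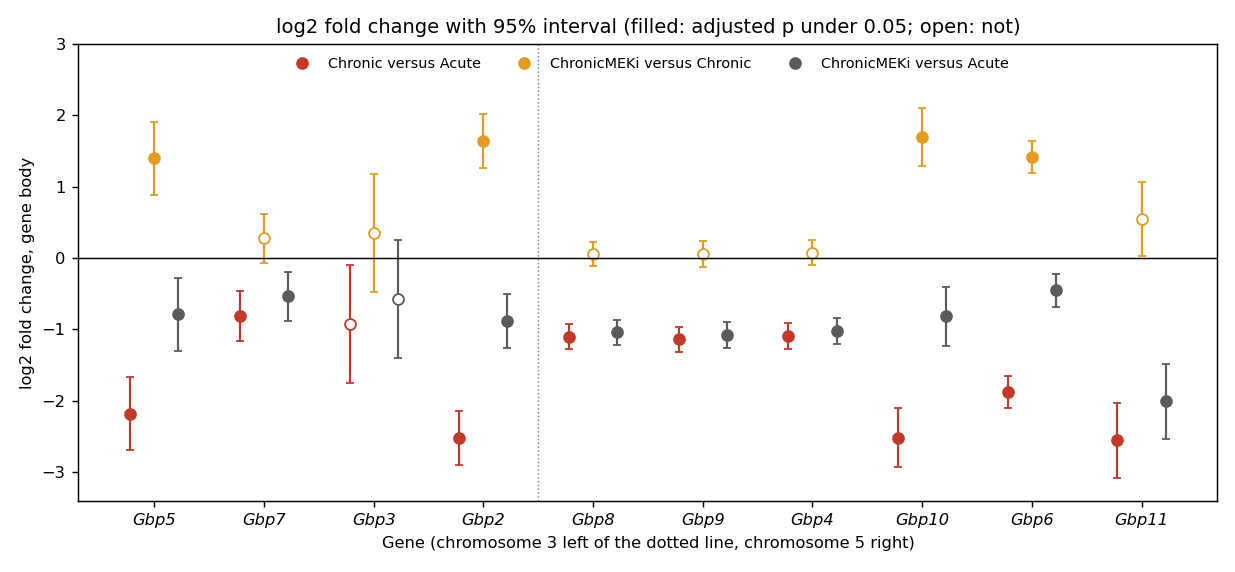
log2 fold change of each Gbp gene in the gene body for the 3 comparisons, with 95% intervals; filled points have an adjusted p under 0.05. Chronic against Acute ranges from -2.55 for Gbp11 to -0.81 for Gbp7, and ChronicMEKi against Chronic splits into points near 1.4 to 1.7 (Gbp2, Gbp5, Gbp6 and Gbp10) and points with intervals near or across 0.

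Set per kb of row, the order in Acute libraries was Gbp4 at 383 ± 25.7 (SD, n = 3), Gbp6 at 278 ± 15.9, Gbp10 at 85.1 ± 4.88 and Gbp2 at 83.1 ± 9.05. Next came the rows of Gbp9 and Gbp8 clear of Gbp4 at 57.1 ± 2.57 and 56.1 ± 1.06, Gbp7 at 48.7 ± 4.11, Gbp11 at 42.3 ± 4.22, Gbp5 at 34.7 ± 7.25 and Gbp3 at 22.2 ± 9.67. Differences between Gbp10 and Gbp2, between the clear rows of Gbp9 and Gbp8, and between neighbours from Gbp7 down to Gbp3 were within the spread between libraries, since the ranges of the libraries overlapped. In Chronic libraries Gbp4 was again highest at 179 ± 5.65, followed by Gbp6 at 76.3 ± 11.6, while Gbp11 (7.05 ± 0.92) and Gbp5 (7.63 ± 2.27) were lowest. In ChronicMEKi libraries Gbp6 reached 203 ± 13.3 and Gbp4 189 ± 4.74, and the libraries of these 2 genes overlapped.

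Whether members within a cluster responded unequally was asked through the log2 ratio of their signals in each library, for 4 pairs picked after the values were seen. Gbp6 relative to Gbp4 was -0.51 ± 0.05 in Acute, -1.29 ± 0.17 in Chronic and 0.05 ± 0.11 in ChronicMEKi libraries. Gbp2 relative to Gbp7 was 0.58 ± 0.13, -1.13 ± 0.35 and 0.24 ± 0.18. In both pairs the 3 groups were separate and the Chronic ratio was lowest. Gbp6 relative to Gbp11 increased from 2.68 ± 0.11 in Acute to 3.37 ± 0.32 in Chronic and 4.24 ± 0.55 in ChronicMEKi, again with no overlap. By the exact two-sided permutation test each of these differences had p = 0.1, the smallest that 3 against 3 libraries allow, or 0.12 after adjustment over 12 tests. The ratio of Gbp6 to Gbp10 was 1.65 ± 0.08, 2.30 ± 0.66 and 2.02 ± 0.15, and its Chronic libraries overlapped both other groups (exact permutation p = 0.3 against Acute and 0.6 against ChronicMEKi). Its ChronicMEKi libraries all lay above the Acute ones, by 0.37 (exact permutation p = 0.1, adjusted 0.12).

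Other transcript rows of the genes, many nested in the row used, were compared where they were strong enough, which left out 4 of 7 rows of Gbp3 and 1 of 4 rows of Gbp9. All rows compared had a lower mean in Chronic than in Acute libraries. Across the rows of a gene, the one used included, with a mean of at least 100 in the higher group, the log2 ratio of Chronic to Acute ran from -2.50 to -2.19 in Gbp2 (2 rows), from -2.59 to -2.01 in Gbp5 (5 rows), from -1.10 to -0.86 in Gbp4 (6 rows) and from -2.46 to -1.55 in Gbp10 (2 rows). For Gbp4, Gbp6 and Gbp9, a protein-coding row and a row of another transcript type with ends within 3 bases but different exons held equal values (within 0.01) in 9 of 9 libraries. In these rows the values therefore did not depend on exon structure, and the exact stretch counted within a row is not given. Of 2 further annotated relatives, Gbp2b and the pseudogene Gbp2-ps, neither passed the filter: mean gene-body signal was 13.5, 3.96 and 4.61 for Gbp2b and 29.4, 26.1 and 47.9 for Gbp2-ps in Acute, Chronic and ChronicMEKi libraries.

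The second deposited table is read here, from its name, as the pause region near the transcription start, where RNA polymerase commonly halts. Of the 10 members, 5 passed the same filter on deposited values there (Gbp2, Gbp4, Gbp6, Gbp8 and Gbp9), and Gbp8 and Gbp9 held identical values and their rows start at almost the same place. Between Chronic and Acute, 4 of the 5 were called lower, against 5.35% of all 7678 genes tested. Gbp2 reached 50 in the 3 Acute libraries and 1 ChronicMEKi library and in 0 Chronic libraries, so it entered the test largely through the group where it was high, and the count is a description of the rows that passed. Without Acute replicate 1 this count was 0, without Acute replicate 3 it was 1 and without Chronic replicate 2 it was 2. In these fits 244 of 7497, 281 of 7488 and 332 of 7518 genes were called lower. No member was called between ChronicMEKi and Chronic by limma, where 1.56% of all genes were called higher, and none between ChronicMEKi and Acute, where 2.51% were called lower. In these comparisons 1 and 4 of the 5 members had an unadjusted p under 0.05, against 1066 and 1450 of all 7678 genes. The 4 include Gbp8 and Gbp9, which hold the same values.

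Gbp2 gave a pause-region signal of 133, 49.8 and 97.8 in Acute, 0, 0 and 18.3 in Chronic and 44.8, 13.0 and 16.4 in ChronicMEKi libraries. Acute lay above both chronic groups, which overlapped, and a pair of Chronic libraries is listed at 0. Its log2 fold change between Chronic and Acute was -3.46 (SE 0.81), on a scale of log2(signal + 5) that understates changes of weak rows. Because Gbp2 passed the filter largely through its Acute libraries, its call is a description and not a test of the fall. Gbp6 gave 236, 85.1 and 269, then 47.5, 61.3 and 63.0, and then 107, 59.5 and 154. Its Chronic libraries lay under the Acute ones, while ChronicMEKi overlapped both. Gbp6 fell by 1.55 between Acute and Chronic (SE 0.40, adjusted p = 0.00996), and its change with the inhibitor was 0.76 with a 95% interval from -0.06 to 1.58 (adjusted p = 0.408). The start shared by Gbp8 and Gbp9 fell by 1.10 (SE 0.33, adjusted p = 0.0292), and Gbp4, whose row starts close by, gave -0.96 (SE 0.35, adjusted p = 0.0784).

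The difference between pause region and gene body, which would show signal piling up near the start, was tested for the same 5 members. None was called in any of the 3 comparisons, where 0.0% of 7413 genes were called. No member had an unadjusted p under 0.05, against 749, 394 and 590 of all genes in Chronic versus Acute, ChronicMEKi versus Chronic and ChronicMEKi versus Acute. Between Chronic and Acute the change in this difference was -0.94 for Gbp2, with a 95% interval from -2.09 to 0.21. For Gbp6 it was 0.32, from -0.62 to 1.27, and for Gbp4 it was 0.14, from -0.69 to 0.97. The intervals span more than 1 on the log2 scale, so a moderate change in pausing was not detectable.

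Most genes of interferon signalling were lower in Chronic libraries, as the Gbp genes were, while the gene of the ligand was higher. Of 19 genes of interferon receptors, JAK-STAT and IRF factors, all tested, 13 were called lower and 1 higher in Chronic than in Acute libraries (median log2 fold change -0.80), 12 higher and 2 lower with the inhibitor (0.71), and 6 lower and 2 higher in ChronicMEKi than in Acute (-0.19). Shares over all genes were 15.9% lower and 18.0% higher, 9.93% higher and 7.65% lower, and 11.5% lower and 14.4% higher. The same shares stand beside the counts of all lists below. Ifng, the gene of interferon gamma, was the 1 that rose in Chronic: its signal was 134, 113 and 170 in Acute, 1490, 1883 and 2168 in Chronic and 684, 772 and 896 in ChronicMEKi libraries. Its groups were separate, in the reverse of the order seen for Gbp2, Gbp5, Gbp6 and Gbp10. Ifng rose by 3.69 (SE 0.20, limma adjusted p = 9.48e-11) and fell by 1.22 with the inhibitor (adjusted p = 0.000196), staying 2.46 above Acute (adjusted p = 3.46e-08).

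Ifngr2, the signalling chain of the interferon gamma receptor, gave 2563, 3135 and 2491 in Acute, 401, 390 and 399 in Chronic and 2302, 2327 and 1716 in ChronicMEKi libraries. Every Chronic library lay under every other library, and it fell by 2.76 (SE 0.14, adjusted p = 5.21e-11) and rose by 2.39 with the inhibitor (adjusted p = 1.15e-09). Ifngr1, the ligand-binding chain, fell by 0.85 (adjusted p = 1.54e-06) and rose by 0.66 (adjusted p = 6.05e-05).

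Irf1, an interferon-induced factor, averaged 7153 ± 240, 4155 ± 876 and 8234 ± 320, and its log2 fold changes were -0.80 and 1.01. Irf8 gave -0.75 and 1.12, and Nlrc5, the activator of MHC class I genes, gave -1.17 and 0.74. Stat2 gave -0.73 and 1.02 and Irf9 -0.90 and 0.44, both factors of the response to type I interferon, whose receptor genes Ifnar1 (-1.58 and 1.18) and Ifnar2 (-1.93 and 1.71) were also called in both directions. Every one of these 7 genes was called in both comparisons, with limma adjusted p of at most 0.0469, the value for Irf9 with the inhibitor. Jak1 fell by 0.56 (adjusted p = 5.90e-05) and did not pass with the inhibitor (-0.01, adjusted p = 0.970). Irf2, which competes with IRF1 for the same element, was not called between Chronic and Acute (-0.15, adjusted p = 0.271) and fell by 0.41 with the inhibitor (adjusted p = 0.00643). Jak2, the feedback inhibitor Socs1 and the phosphatase Ptpn2 were called in neither comparison, with log2 fold changes of 0.11, 0.16 and -0.07 between Chronic and Acute.

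**Figure D4:**
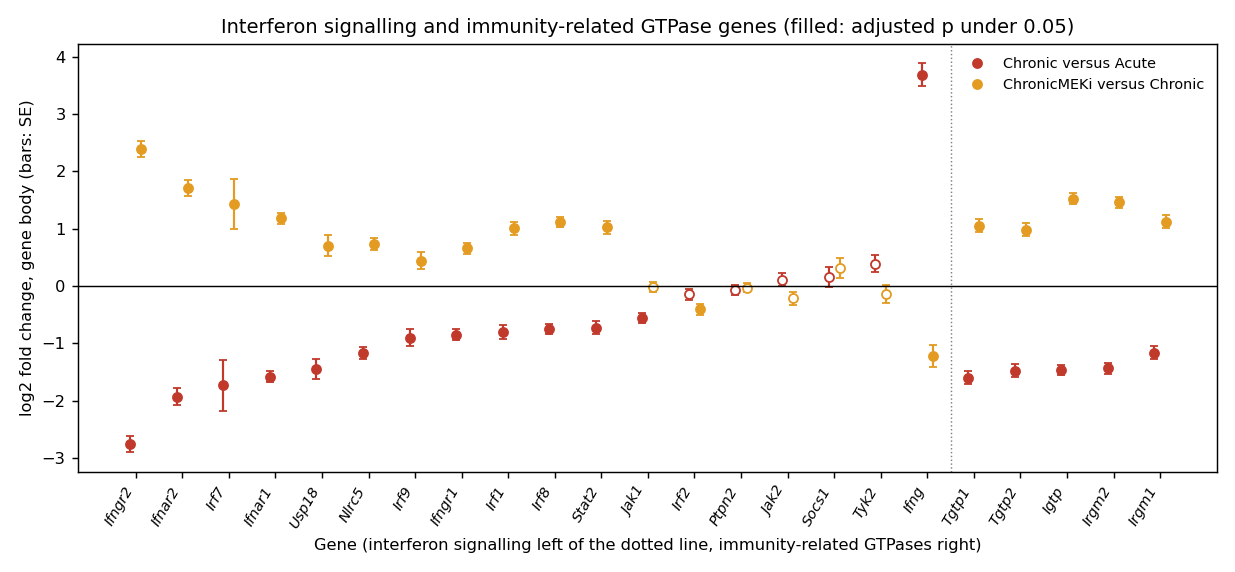
log2 fold change in the gene body, with SE, of interferon signalling genes (left of the dotted line) and 5 immunity-related GTPase genes (right), for Chronic versus Acute and ChronicMEKi versus Chronic; filled points have an adjusted p under 0.05. Ifngr2 shows the lowest and Ifng the highest value in Chronic versus Acute, and all 5 GTPase genes fell and then rose.

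The immunity-related GTPases, a second family of interferon-induced GTPases that acts with the Gbp proteins on vacuoles, changed in the same directions. All 5 genes tested fell in Chronic (median -1.46) and rose with the inhibitor (median 1.12), and 2 of 5 stayed lower than in Acute. Igtp averaged 15716 ± 42.2, 5728 ± 700 and 16431 ± 363, with log2 fold changes of -1.46 and 1.53, and Irgm1 averaged 4525 ± 71.1, 2035 ± 334 and 4410 ± 306, with -1.16 and 1.12. Irgm2, whose row overlaps that of Igtp on the same strand, gave -1.43 and 1.46. Against Acute, ChronicMEKi differed by 0.06 for Igtp and -0.04 for Irgm1 (limma adjusted p = 0.661 and 0.838), while Tgtp1 and Tgtp2, which lie within a longer annotated gene, Olfr56, on the opposite strand, remained lower by -0.55 and -0.50 (adjusted p = 0.00170 and 0.00297).

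Among 24 interferon-induced genes outside both families, 16 passed the filter. Of these 8 were called lower and 1 higher in Chronic (median -0.68), 10 higher and 0 lower with the inhibitor (0.68), and 4 higher and 4 lower in ChronicMEKi than in Acute (0.28). In that last comparison 14.4% of all genes were called higher and 11.5% lower. The largest falls were of Rtp4 (-1.87, SE 0.48, limma adjusted p = 0.00505) and Xaf1 (-1.85, SE 0.16, adjusted p = 7.11e-08), and the gene that rose was Mx1 (0.65, adjusted p = 0.00711). With the inhibitor the largest rises were of Ifit1 (2.29, SE 0.66, adjusted p = 0.0202), which averaged 50.2, 19.5 and 83.8, and Ifit2 (1.38, SE 0.13, adjusted p = 4.35e-07). ChronicMEKi exceeded Acute for Ifit2 (1.22, adjusted p = 1.35e-06) and was below it for Ifih1 (-1.42, adjusted p = 0.00102).

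Of the inflammasome, prenylation and ATG8 conjugation lists, genes that Gbp proteins work with, only the last held calls in both directions within a comparison. Over all genes 15.9% were called lower and 18.0% higher in Chronic. With the inhibitor 9.93% were called higher and 7.65% lower, and between ChronicMEKi and Acute 11.5% lower and 14.4% higher. Of 6 tested inflammasome and cell death genes, 2 fell in Chronic, Casp4 (-1.21, limma adjusted p = 0.00826) and Gsdmd (-1.19, adjusted p = 0.00146), and 1 rose with the inhibitor, Gsdmd (0.87, adjusted p = 0.0259). Naip2 was the 1 gene of that list called higher in ChronicMEKi than in Acute (0.74, adjusted p = 0.0472). Of 6 prenylation genes, Fntb, the farnesyltransferase beta subunit, was the 1 called: it fell by 1.10 (adjusted p = 3.65e-07) and rose by 0.67 with the inhibitor (adjusted p = 0.000269), and it stayed at -0.44 to Acute (adjusted p = 0.00689). Of 9 tested genes of the ATG8 conjugation system, which guides these GTPases to vacuoles, 3 fell and 1 rose in Chronic, among them Gabarapl2 (-0.61, adjusted p = 0.00581) and Gabarapl1 (0.82, adjusted p = 0.000583). With the inhibitor these 2 went the other way, by 0.60 and -0.92 (adjusted p = 0.0120 and 0.000374). Against Acute, ChronicMEKi was lower for Atg16l1 (-0.39, adjusted p = 0.00320) and higher for Atg7 (0.37, adjusted p = 0.0361), 1 gene in each direction. The list medians were -0.41, 0.05 and -0.11 between Chronic and Acute for inflammasome, prenylation and ATG8 genes.

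Genes around the clusters were compared with the members, taking the nearest 3 tested genes on each side. Around the chromosome 3 cluster, Pdlim5, Bmpr1b and Unc5c before it and Gtf2b and Pkn2 after it were not called between Chronic and Acute, and Kyat3, 63.1 kb after it, rose by 1.59 (limma adjusted p = 0.000369). Around the chromosome 5 cluster, Zfp951, BC005561, Lrrc8b and Lrrc8d were not called, and Lrrc8c fell by 0.55 (adjusted p = 8.27e-05). Abcg3, an ABC transporter gene 31.4 kb before that cluster, averaged 502, 100 and 192 in Acute, Chronic and ChronicMEKi libraries. It fell by 2.33 (SE 0.29, adjusted p = 4.98e-06), rose by 0.95 with the inhibitor (SE 0.29, adjusted p = 0.0291) and stayed at -1.38 to Acute (adjusted p = 0.00159), the same 3 calls as Gbp2, Gbp5, Gbp6 and Gbp10. Of the other neighbours, Gtf2b (-0.46, adjusted p = 0.00716) and Zfp951 (-0.45, adjusted p = 0.0347) fell with the inhibitor. Against Acute, ChronicMEKi was higher for Lrrc8b (0.45, adjusted p = 0.0129) and lower for Lrrc8c (-0.42, adjusted p = 0.00147).

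Markers were used to check the labelled cell type. All 8 CD8 T cell markers were present at a mean of at least 50, and their sum ran from 35430 to 43330 in Acute, from 24659 to 25027 in Chronic and from 33782 to 36276 in ChronicMEKi libraries. Cd8a itself ran from 3694 to 4388, from 841 to 1184 and from 2609 to 3099, the order of groups seen for Gbp2 and Gbp6. Of 5 B cell markers, 2 reached a mean of 50, Cd79a and Pax5. The B cell list summed to 540 to 571, 192 to 222 and 162 to 439, with Ms4a1 at most 24.7. Cd79a ran from 294 to 379, from 63.8 to 157 and from 72.7 to 199, so its Acute libraries lay above all others. Pax5 ran from 97.4 to 205, from 42.8 to 100 and from 44.6 to 209. Of 6 monocyte and macrophage markers, 2 reached 50, Csf1r (at most 108) and Adgre1 (at most 124). That list summed to 164 to 230, 131 to 178 and 100 to 235, with Lyz2 at most 8.58 and Cd14 at most 9.78. Dendritic cell markers (1 of 5 reached 50) summed to 208 to 304, 316 to 355 and 163 to 245, NK markers (0 of 2) to at most 54.8, and Cd4 ran from 388 to 501, from 146 to 348 and from 102 to 143. The part of these differences in the Gbp results was not tested.

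Over 1 row per gene, deposited gene-body values summed to between 48600000 and 52220000 per library. Pause-region values summed to between 4890000 and 5600000 in Acute, 6780000 and 8490000 in Chronic and 6840000 and 7500000 in ChronicMEKi libraries; the part of this difference in the pause-region results was not tested. Low values were whole multiples of a step of 0.764 to 1.06 that differed between libraries, and since 1-step values were rarer than 2-step and 4-step values, a step was not taken as a read. The number of reads behind a value cannot be told, so no interval for counting error is printed.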

How the data were processed

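The authors deposited signal per Ensembl transcript in a gene-body and a pause-region table of 118482 rows each, named by them as counts. The submitters' processing notes name FastQC 0.12.0, Trim Galore 0.6.10, STAR 2.7.0a, SAMtools 1.19.2, deepTools 0.1.9, R 4.1.2 and build mm10. The regions' coordinates, the use of strand and the treatment of reads that fit several places are not given in the sources used here. The values carry 1 scale factor per library and are not whole reads, so the count model that had been planned in case they were was not used.

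Rows were matched to GENCODE M21 by transcript identifier: 117346 with version, 383 without, and 753 not matched and left out. For each gene the row highest in gene-body signal on average was kept. Genes needed 3 or more libraries at a deposited signal of 50 or higher. Scale factors came from trimmed means over these genes, without weights, after leaving out 30% of the log ratios and 5% of the levels at each end. One limma 3.58.1 model (R 4.3.3) with a mean per group, an intensity trend and robust moderation was fitted to log2(signal + 5) of all 9 libraries, a scale on which folds of weak genes are understated. Adjusted p-values are Benjamini-Hochberg over all genes tested in a comparison, with a threshold of 0.05. The model was tested on simulated data. Python 3.11.15 with pandas 2.3.3 served for joining. Coding sequences of GENCODE transcripts were aligned in pairs, and promoters came from RefSeq.

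The members and the gene lists were chosen with earlier results of these data known, and directions that those results already showed are no independent evidence. All members are named; of the lists, the interferon signalling genes and those with the largest called changes; 1 signalling gene and 1 marker gene are counted in their lists and not reported here by value. Alternatives were 3 other scalings, pseudocounts of 0.5 and 50, no filter, limma without trend and robust moderation, a fit of the 2 groups compared, the longest row per gene, the replicate number as a block and each library left out in turn. An alternative with Gbp8 and Gbp9 rows clear of Gbp4 was chosen after seeing the data.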

Additional observations from a re-analysis of the deposited data

How the results depend on the processing

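Gene-body counts held under every alternative run: between 9 and 10 members lower in Chronic versus Acute, 4 to 5 higher in ChronicMEKi versus Chronic and 7 to 9 lower in ChronicMEKi versus Acute. Under the 3 other scalings, which moved the median of all genes between Chronic and Acute to -0.50 (library totals), -0.48 (deposited scale) and -0.17 (totals less ribosomal RNA-like rows), no member changed direction. Of all genes, the deposited scale called 6713 lower and 1134 higher in Chronic versus Acute, 721 and 1979 in ChronicMEKi versus Chronic and 4542 and 1023 in ChronicMEKi versus Acute; with ribosomal RNA left out of the totals, the first was 3759 and 2096 and the last 3151 and 1572. Called values that library totals moved by more than 1.5 times were Gbp7 in Chronic versus Acute (-1.30) and Gbp6 and Gbp7 in ChronicMEKi versus Acute (-0.84 and -0.92). Of 600 single-gene values under alternatives, 580 kept direction and side of the threshold, 7 lost the call, 6 gained one and 7 changed sign. The sign changes were all in ChronicMEKi versus Chronic values that were not called: Gbp9 with the row clear of Gbp4 gave -0.0594, and leaving out single libraries gave -0.0493 to 0.68 for Gbp3, -0.000258 to 0.10 for Gbp4, -0.0130 to 0.0950 for Gbp8 and -0.0119 to 0.0943 for Gbp9.

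Pause-region counts were less stable. Leaving out single libraries gave 0 to 5 members called in Chronic versus Acute and 0 to 4 in ChronicMEKi versus Acute. Of all genes tested, 7318 to 7519 in these fits, 244 to 393 and 99 to 255 were called lower. The count of members in ChronicMEKi versus Acute was 3 with library totals, 3 with a pseudocount of 50 and 2 with the replicate block. Beside it, 483, 247 and 223 of 7678 genes were called lower. For the difference between pause region and gene body, a pseudocount of 50 gave 1 called member in Chronic versus Acute and 1 in ChronicMEKi versus Chronic. Of all 7413 genes it called 87 higher and 122 lower in the first and 16 higher and 20 lower in the second. The cause was not tested.

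The labels do not say that a replicate number marks a shared animal or day. Deviations of same-numbered libraries correlated from 0.07 to 0.10 between Acute and Chronic, from -0.53 to -0.01 between Acute and ChronicMEKi and from -0.15 to 0.09 between Chronic and ChronicMEKi. For libraries of different number the ranges were -0.08 to -0.01, -0.37 to 0.51 and -0.11 to 0.16. Same-numbered libraries lay above all others only between Acute and Chronic, so the numbers were not taken as pairs. The source of the other correlations was not tested. With the replicate block the gene-body counts were 9, 4 and 9, and no other member count but that named above moved. Precision is limited by 3 libraries a group and unknown read depth.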

Other observations

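Genes outside the family whose gene-body log2 values lay nearest to the mean profile of a cluster were looked up among the genes tested. Symbols of the Gm, Rik, LOC, AC and AL types were left out. Distance was Euclidean over the 9 libraries, with each gene centred on its own mean. For the 4 chromosome 3 members the nearest were Myo3b, Olfr56, Tgtp1, Ifi47 and Entpd5, at distances of 0.35 to 0.48. Tgtp1 and Ifi47 are interferon-induced GTPase genes. Olfr56 is annotated across both of them, on the same strand as Ifi47 and the opposite strand to Tgtp1. The values of Olfr56 and Ifi47 are therefore not separate, and since the use of strand is not given, those of Olfr56 and Tgtp1 may not be. Myo3b averaged 1009, 348 and 692 in Acute, Chronic and ChronicMEKi libraries, and Entpd5, a nucleotide hydrolase gene, 790, 244 and 520. For the 6 chromosome 5 members the nearest were Hectd2, Cep97, Tmem59, Pde11a and Sh3bp5, at distances of 0.25 to 0.43. Hectd2 averaged 1308, 401 and 601, and its log2 fold changes were -1.70, 0.58 and -1.12. The members themselves lay 0.84 to 1.52 from the mean profile of their cluster; the genes above were picked for being nearest to it, so the distances are not to be compared.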
